A study of Mus musculus with 18 samples.

Results

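Described here are 10 mouse genes of serine and amino acid supply that are known metabolic targets of the transcription factor ATF4: Asns, Phgdh, Psat1, Psph, Shmt2, Mthfd2, Aldh18a1, Pycr1, Slc7a11 and Slc7a3. They were taken by symbol from the platform annotation, out of 17711 genes named there, and every probe with one of these symbols was used. Of the 10 genes, 9 had probes, 18 in all, and Pycr1 is not analysed here because no probe carried its symbol. The samples were embryonic stem cells of the line CGR8, strain 129P2/Ola, whose total RNA was labelled and hybridized to Illumina Mouse-6 arrays, with 2 arrays in each of 9 groups. LIF (leukaemia inhibitory factor, which holds such cells undifferentiated) was withdrawn for 0, 1 and 3 days, once with CsA (cyclosporin A, which blocks the phosphatase calcineurin) and once without it. In a derived line, ideltaCnAES, deltaCnA, an active form of the catalytic calcineurin A subunit, was induced by withdrawing Tc (tetracycline) for 0, 1 and 4 days. The labels do not say whether the derived line was 1 clone, whether LIF was present in that course, or how long CsA had been present at day 0. Nor do they say where the replicates came from. The spread behind each p-value is therefore that of these arrays and may be no more than technical.

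ATF4 is translated preferentially when cells lack amino acids or face stress in the endoplasmic reticulum, and it binds composite C/EBP-ATF sites near genes that restore amino acid supply. Phgdh, Psat1 and Psph form the pathway that makes serine from a glycolytic intermediate. Shmt2 splits serine to glycine in the mitochondria and passes its one-carbon unit to folate, and Mthfd2 oxidises that folate-bound unit. Asns makes asparagine, Aldh18a1 and Pycr1 act at the first and last steps of proline synthesis, Slc7a11 is the cystine and glutamate exchanger, and Slc7a3 carries cationic amino acids such as arginine and lysine into the cell.

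The promoters were read for the C/EBP-ATF core, TGATGNAA on either strand, in the 250 bases before each annotated start in a RefSeq table of build GRCm38.p6. The table held 9 of the 10 genes, all but Slc7a3. Of these 9, 3 had a match (Asns, Slc7a11 and Pycr1), against 3.91% of the 27025 genes in the table and 3.45% of its 32851 windows. Asns had 1 match, beginning 23 bases before the start, and Slc7a11 had 2, beginning 66 and 47 bases before it. The Asns and Slc7a11 windows are shown because they hold the letters searched for, and the Psat1 window because Psat1 had the largest change of the 7 genes at day 1 of deltaCnA induction and no match was found there, which says only that these letters are not in this window. Capitals mark the matches, and each window is printed 5′ to 3′ on the minus strand, at chr6:7693210-7693459 for Asns, chr3:50443614-50443863 for Slc7a11 and chr19:15925060-15925309 for the upstream of the 2 Psat1 windows.
Asns: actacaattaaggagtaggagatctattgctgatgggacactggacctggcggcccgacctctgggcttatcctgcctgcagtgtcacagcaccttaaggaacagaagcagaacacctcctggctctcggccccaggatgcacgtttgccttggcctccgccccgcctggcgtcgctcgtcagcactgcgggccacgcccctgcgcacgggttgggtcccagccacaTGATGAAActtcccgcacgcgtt
Slc7a11: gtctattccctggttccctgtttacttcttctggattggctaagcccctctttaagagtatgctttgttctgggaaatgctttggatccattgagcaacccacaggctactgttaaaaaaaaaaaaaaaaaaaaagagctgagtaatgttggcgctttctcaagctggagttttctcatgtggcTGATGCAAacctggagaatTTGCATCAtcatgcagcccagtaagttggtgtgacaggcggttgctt
Psat1: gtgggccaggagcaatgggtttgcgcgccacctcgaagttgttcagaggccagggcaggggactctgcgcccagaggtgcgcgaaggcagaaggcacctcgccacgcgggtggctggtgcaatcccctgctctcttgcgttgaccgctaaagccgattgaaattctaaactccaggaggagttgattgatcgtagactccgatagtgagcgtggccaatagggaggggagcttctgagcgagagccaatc

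Of the 9 genes with probes, 7 were detected on all 18 arrays by the probe that stands for the gene, its brightest. Psph and Aldh18a1, with 1 probe each, were detected on 0 arrays, at normalized log2 intensities of 4.30 to 4.49 and 4.32 to 4.62, so that 7 genes were tested. Slc7a11 was dim: 4 of its 6 probes were detected on 0 arrays, and the probe used lay between 5.31 and 6.32. The other probes spanned 6.17 to 7.54 for Phgdh, 8.49 to 9.78 for Shmt2, 10.27 to 11.85 for Mthfd2, 11.02 to 12.74 for Asns, 11.10 to 12.72 for Psat1 and 12.32 to 13.06 for Slc7a3. Levels of different probes are not comparable with each other, and 5 of the genes had a second detected probe, which is given beside the first where it bears on a result.

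Mean intensity per array ran from 286.9 to 484, 40.4% to 44.1% of 46632 probes were detected, and replicates correlated at r = 0.992 to 0.996 over genes. The lowest intensities were -57.95 to -47.00 on the deltaCnA arrays and -29.37 to -23.71 on the others. Of 8 stem cell markers, 6 (Pou5f1, Sox2, Nanog, Esrrb, Utf1 and Zfp42) were detected on all 18 arrays. Of 8 fibroblast markers, Col1a1, Col1a2, Col3a1, Lum and Postn were detected on 0 arrays, Thy1 on 18, Pdgfrb on 13 and Dcn on 6. Of 8 primitive endoderm markers, Sox17, Foxa2, Afp and Ttr were detected on 0 arrays, Gata4 and Pdgfra on 18, Dab2 on 13 and Gata6 on 3. Marker sums given below run over all genes of a list that had a probe. They include the undetected ones, which add only background, and are no measure of how many cells of a type were present. In bulk samples, fewer cells of a type and less RNA per cell cannot be told apart. The 2 detected Ppp3ca probes (the calcineurin A alpha gene) moved by -0.24 and -0.18 log2 after 1 day without Tc and were not called (adjusted p = 0.318 and 0.609), and whether they lie within the deltaCnA construct is not stated, so they are no check of the induction.

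After 1 day of deltaCnA induction, enzymes of serine synthesis and of the mitochondrial one-carbon pathway were lower. At day 1 against day 0 without Tc, 4 of the 7 genes fell at an adjusted p under 0.05 and none rose (limma, Benjamini-Hochberg adjustment over 10980 genes), where 11.2% of all genes were called, 4.64% as lower. Psat1, Shmt2, Mthfd2 and Phgdh fell by 1.71-fold to 2.13-fold, while Asns, Slc7a11 and Slc7a3 were not called. The median change of the 7 was -0.77 log2, against 0.01 over all genes tested.

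Psat1, the aminotransferase of the serine pathway, had log2 intensities of 11.10 and 11.70 at day 1 of induction, against 12.39 and 12.58 at day 0. Both day 1 arrays lay below every other array of the series. The change was -1.09 ± 0.15 (SE, n = 2 each; adjusted p = 7.71e-05), and the second probe, at 8.97 and 9.46 against 10.17 and 10.33, gave -1.03 ± 0.17 (adjusted p = 0.000816). Phgdh, the dehydrogenase that opens the pathway, had 6.24 and 6.17 at day 1, against 6.84 and 7.11 at day 0. These 2 arrays too lay below all others, and the replicates at day 1 differed by little. Phgdh fell by 0.77 ± 0.19 on the log2 scale (adjusted p = 0.0113).

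Mthfd2 had 10.27 and 11.11 at day 1, against 11.56 and 11.46 at day 0, a change of -0.82 ± 0.18 (adjusted p = 0.00474). Its day 1 arrays were also the lowest of the series, replicate 1 well below replicate 2. Shmt2 had 8.49 and 9.23 at day 1, against 9.72 and 9.78 at day 0, a change of -0.89 ± 0.17 (adjusted p = 0.00209). The groups did not overlap, although replicate 2 stood at the level of some arrays from LIF withdrawal. The second Shmt2 probe read 7.99 and 9.0 against 9.08 and 9.22, with a change of -0.65 ± 0.21 that was not called (adjusted p = 0.0576).

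Asns had 11.02 and 11.47 at day 1, against 11.62 and 11.70 at day 0. The groups did not overlap, but the change of -0.42 ± 0.19 was not called (adjusted p = 0.165). On its second, dimmer probe Asns had 7.56 and 8.0 at day 1, against 8.45 and 8.48 at day 0, and there it fell, by 0.69 ± 0.17 (adjusted p = 0.0143). For the transporters the day 1 and day 0 arrays overlapped. Slc7a11 had 5.31 and 5.61 at day 1, against 5.33 and 5.85 at day 0 (change -0.13, 95% confidence interval -0.55 to 0.29). Slc7a3 had 12.50 and 12.44 at day 1, against 12.32 and 12.90 at day 0 (change -0.14, interval -0.40 to 0.12), so its 2 day 0 arrays stood on either side of the day 1 arrays.

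Replicate 1 of induction day 1 was lower than replicate 2 in 5 of the 7 genes, all but Phgdh and Slc7a3. Without that array the falls of Psat1 (-0.79), Mthfd2 (-0.40) and Shmt2 (-0.52) were smaller. Of the calls, only that of Psat1 held. Phgdh fell no less without it (-0.81), but its SE rose to 0.24 and its call was lost. Calls over all genes also became fewer without that array. Without replicate 2 of day 0, Phgdh was at -0.63 (adjusted p = 0.141), without replicate 2 of day 1 at -0.73 (adjusted p = 0.0517). Slc7a3 was called only without replicate 1 of day 0, at -0.43 (adjusted p = 0.0249). Stem cell markers summed to 35349 in linear normalized units at day 1, against 39409 at day 0. Fibroblast markers summed to 280.2 against 265.3 and primitive endoderm markers to 328.6 against 328.3.

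**Figure D1:**
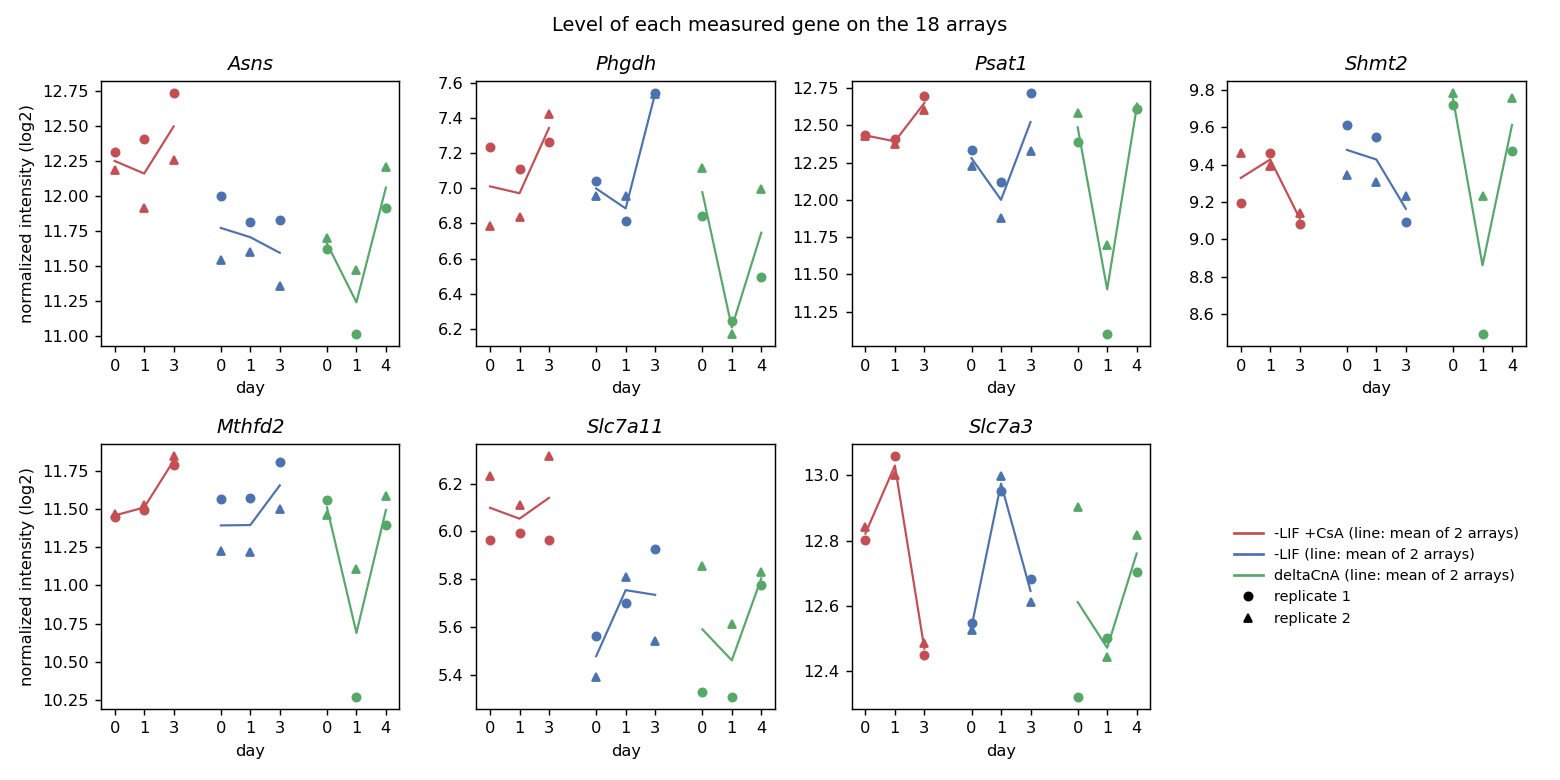
Normalized log2 intensity of the 7 tested genes (1 panel each, with its own vertical scale) against day, for LIF withdrawal with CsA, LIF withdrawal alone and deltaCnA induction. Points are arrays, lines join means of 2 arrays; in 6 of 7 panels the lowest group mean is deltaCnA day 1, and Slc7a3 is the exception.

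Of the 7 genes, 0 were called at day 4 against day 0 (3.42% of all genes called, limma), and 1 had an unadjusted p under 0.05, Asns at 0.40 ± 0.19 (adjusted p = 0.321). Psat1 had 12.61 and 12.63 at day 4, Mthfd2 11.40 and 11.59, Shmt2 9.47 and 9.76, Phgdh 6.50 and 7.0, and Asns 11.92 and 12.21. For Mthfd2, Shmt2 and Phgdh these arrays overlapped those of day 0, while for Psat1 and Asns they lay above them. The interval of the difference from day 0 ran from -0.39 to 0.35 for Mthfd2 and from -0.63 to 0.16 for Phgdh. With only the arrays compared in the fit, Asns was called at this day (adjusted p = 0.0278). The second Asns probe was higher at day 4 than at day 0 by 0.57 ± 0.17 and was not called (adjusted p = 0.0851).

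Day 4 was also set against day 1, a comparison added after the levels had been seen. Here 4 of 7 genes rose, where 15.7% of all genes were called and 8.21% as higher. Psat1 was higher at day 4 by 1.22 ± 0.15 (adjusted p = 1.46e-05), Asns by 0.82 ± 0.19 (adjusted p = 0.00501), Mthfd2 by 0.80 ± 0.18 (adjusted p = 0.00385) and Shmt2 by 0.75 ± 0.17 (adjusted p = 0.00515). Phgdh, at 0.54 ± 0.19, missed the threshold (adjusted p = 0.0571). On the probes that stand for the genes, the 2 groups did not overlap for any of the 7. Nor did they for 58.8% of all genes (29.1% with both arrays higher at day 4). The second Slc7a3 probe ran the other way, at 6.05 and 6.18 at day 4 against 6.33 and 6.48 at day 1. This comparison shares its day 1 arrays with the one above and is not independent of it. Of its 4 calls, only that of Psat1 held without replicate 1 of day 1 or without replicate 2 of day 4. Fewer of all genes were called there as well.

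**Figure D2:**
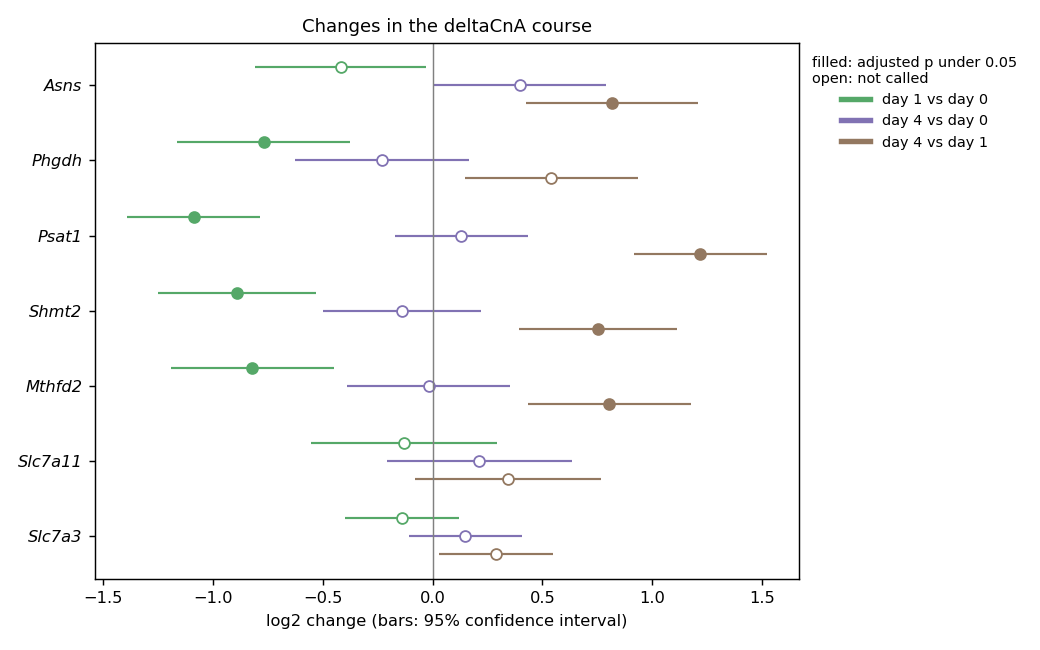
Log2 change of each of the 7 genes in the deltaCnA course, for day 1 over day 0, day 4 over day 0 and day 4 over day 1, with 95% confidence intervals from limma. Filled points are called at an adjusted p under 0.05: 4 to the left of 0 at day 1 over day 0, 4 to the right at day 4 over day 1, and none at day 4 over day 0.

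Between cells with and without CsA, Asns was called at day 3 and Slc7a11 at day 0. Asparagine synthetase was higher with CsA after 3 days without LIF, and it was the only one of the 7 genes called at that day, where 38.1% of all genes were called, 19% as higher. The count of 1 in 7 is thus below the share over all genes. Asns had 12.74 and 12.26 with CsA at day 3, against 11.83 and 11.36 without CsA. The arrays with CsA lay above both arrays without it, by a change of 0.90 ± 0.19 (1.87-fold, adjusted p = 0.000547). The second probe read 9.42 and 9.14 with CsA, against 8.45 and 7.86 without, a change of 1.12 ± 0.17 (adjusted p = 1.94e-05). This call held in all 15 alternatives run on it, with changes between 0.66 and 1.14.

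At day 0, Asns had 12.31 and 12.19 with CsA, against 12 and 11.54 without. The groups did not overlap, but the change of 0.48 ± 0.19 was not called (adjusted p = 0.0992), while the second probe was, at 0.58 ± 0.17 (adjusted p = 0.0317). At day 1, Asns had 12.40 and 11.92 with CsA, against 11.82 and 11.60 without, a change of 0.45 ± 0.19 (adjusted p = 0.132). The difference with CsA was thus positive at each of the 3 days. Whether it grew was tested as an interaction: the change from day 0 to day 3 differed by 0.42 ± 0.27 between cells with and without CsA (adjusted p = 0.332), which is not called.

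Slc7a11 had 5.96 and 6.23 with CsA at day 0, against 5.56 and 5.39 without. It was the 1 gene of 7 called there, at 0.62 ± 0.20 (adjusted p = 0.0468), with 13.2% of all genes called, 6.17% as higher, so the count is near the background. The call held in 4 of 15 alternatives and was lost without any 1 of the 4 arrays compared (adjusted p between 0.0784 and 0.25). At day 1 the level was 5.99 and 6.11 with CsA, against 5.70 and 5.81 without, and at day 3 it was 5.96 and 6.32, against 5.93 and 5.54. These arrays did not overlap either, and the changes of 0.30 and 0.41 were not called (adjusted p = 0.394 and 0.126). The second Slc7a11 probe, itself dim, ran the other way, at -0.08 ± 0.19, -0.40 ± 0.19 and -0.04 ± 0.19 for days 0, 1 and 3, and was not called either (adjusted p = 0.849, 0.223 and 0.9).

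Among the 7 genes, the serine and one-carbon enzymes Phgdh, Psat1, Shmt2 and Mthfd2 were not called with CsA at any of the 3 days. On a wider list of serine, glycine and one-carbon genes, 14 were measured. With CsA at day 3, 4 of these were higher and 3 lower, where 38.1% of all genes were called. At day 1, 1 was lower and 0 were higher, and at day 0 none was called (10.7% and 13.2% of all genes called). At day 1 of the withdrawal 0 of 7 genes were called (10.7% of all genes; limma), and 2, Asns and Psat1, had an unadjusted p under 0.05. Psat1 had 12.41 and 12.38 with CsA at day 1, against 12.12 and 11.88 without, a change of 0.39 ± 0.15 (adjusted p = 0.0892). With only the arrays of that comparison in the fit, both Psat1 and Asns were called (adjusted p = 0.0231 and 0.0273). For Phgdh, Shmt2 and Mthfd2 the difference with CsA was between -0.20 and 0.16 at each of the 3 days, with intervals that reached from -0.59 to 0.53 at most. Stem cell markers summed to 30858 with CsA at day 3, against 18480 without. Fibroblast markers summed to 299.3 against 609.5 and endoderm markers to 468.2 against 645.7, and the part of these differences in the Asns result was not tested.

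**Figure D3:**
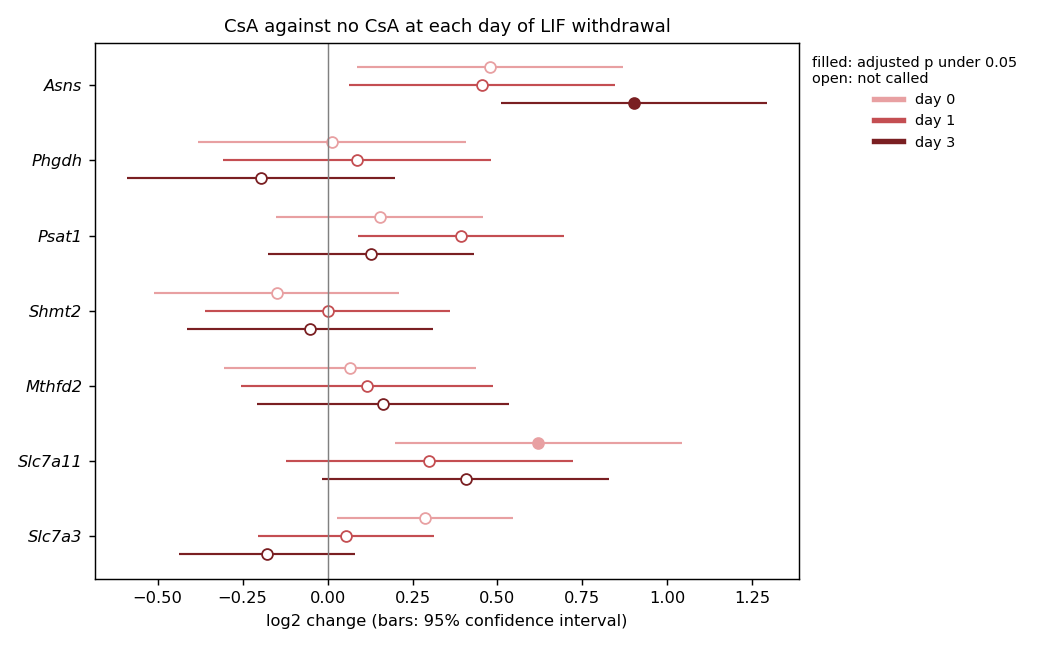
Log2 change with CsA over no CsA for the 7 genes at days 0, 1 and 3 of LIF withdrawal, with 95% confidence intervals from limma. Filled points are called: Asns at day 3 (0.90) and Slc7a11 at day 0 (0.62), while intervals of Shmt2 and Mthfd2 include 0 at each day.

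During LIF withdrawal without CsA, 1 of the 7 genes was called at each day. Slc7a3, the arginine and lysine carrier, had 12.95 and 13 at day 1 without LIF, against 12.55 and 12.52 at day 0. The arrays were close together within each group and did not overlap. Slc7a3 was higher by 0.44 ± 0.12 (1.36-fold, adjusted p = 0.028), the only call among the 7 genes, where 8.42% of all genes were called, 3.73% as higher. The second probe read 7.13 and 7.27, against 6.74 and 6.94, a change of 0.36 ± 0.17 that was not called (adjusted p = 0.291). Each of the 4 arrays, when left out, took the call away (adjusted p between 0.0891 and 0.134).

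By day 3 without LIF, Slc7a3 was at 12.68 and 12.61, a change of 0.11 ± 0.12 from day 0 (adjusted p = 0.532). With CsA the same gene had 13.06 and 13 at day 1 and 12.45 and 12.49 at day 3, against 12.80 and 12.84 at day 0. It fell by 0.35 ± 0.12 at day 3 with CsA (adjusted p = 0.0359, 1 of 7 genes, 29.6% of all genes called, 14.7% as lower). The second probe moved the other way, by 0.25 ± 0.17 (adjusted p = 0.33), and the mean of both probes by -0.05, so the direction of Slc7a3 at day 3 with CsA depends on the probe. Leaving out any 1 of the 4 arrays took this call away too (adjusted p between 0.0868 and 0.148). The interaction at day 3 was -0.46 ± 0.18 for Slc7a3 and was not called (adjusted p = 0.0819). Of the 7 genes, 0 were called in the interactions, where 0.0729% of all genes were called at day 1 and 15.3% at day 3, and 1 of 7 had an unadjusted p under 0.05 at day 3 and 0 at day 1 (limma).

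Phgdh had 7.54 on both arrays at day 3 without LIF, against 7.04 and 6.96 at day 0. It was higher by 0.54 ± 0.19 (1.45-fold, adjusted p = 0.0278), the 1 call of 7 genes, with 38.2% of all genes called, 18.4% as higher. Leaving out any 1 of the 4 arrays took the call away (adjusted p between 0.0608 and 0.123). With CsA, Phgdh had 7.26 and 7.42 at day 3, against 7.24 and 6.78 at day 0, a change of 0.33 ± 0.19 (adjusted p = 0.207). Of the 7 genes, 0 were called at day 1 with CsA, and 0 had an unadjusted p under 0.05 (4.53% of all genes called; limma). Beside these changes, stem cell markers summed to 18480 at day 3 without LIF, against 37192 at day 0, fibroblast markers to 609.5 against 365.4 and endoderm markers to 645.7 against 335.5. Their part in the Phgdh result was not tested.

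Between the uninduced deltaCnA line and the parental cells at day 0, 0 of the 7 genes were called (17.4% of all genes called; limma), and 0 had an unadjusted p under 0.05. The changes lay between -0.11 for Asns and 0.27 for Shmt2. The second Slc7a3 probe was lower in the line, at 6.35 and 6.41 against 6.74 and 6.94, while the first differed by 0.08. Line, Tc and the arrays used cannot be told apart in this comparison.

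Over the 9 groups, the mean of deltaCnA day 1 was the lowest for 6 of the 7 genes and below every other array for 3, Phgdh, Psat1 and Mthfd2. Over all genes tested, that group was the lowest for 11.1% and below every other array for 3.11%. For Slc7a11 the margin was small, 5.46 against 5.48 at day 0 without CsA, and the arrays overlapped. On the second Slc7a11 probe deltaCnA day 1, at 5.28, was not the lowest and lay above day 3 without LIF (5.25) and all groups with CsA. The groups with CsA headed the order for Asns, at means of 12.50, 12.25 and 12.16 for days 3, 0 and 1, and for Slc7a11, at 6.14, 6.10 and 6.05 for the same days. On the second Asns probe deltaCnA day 4, at 9.04, stood below day 3 with CsA (9.28) but above days 0 and 1 with CsA (8.93 and 8.83). On the second Slc7a11 probe the groups with CsA were instead the 3 lowest, at 5.20, 5.21 and 5.12. Neighbouring groups in the order of Asns overlapped at each of 8 steps, and in that of Shmt2 likewise. Phgdh was highest at day 3 without LIF and next at day 3 with CsA, apart from each other and from the groups below. The range from lowest to highest group mean was 2.52-fold for Phgdh, 2.39-fold for Asns, 2.38-fold for Psat1, 2.18-fold for Mthfd2, 1.86-fold for Shmt2, 1.60-fold for Slc7a11 and 1.48-fold for Slc7a3.

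As a description over the 9 group means, which share arrays and normalization, Psat1 ran with Mthfd2 (r = 0.93), Phgdh with Mthfd2 (r = 0.90) and Asns with Slc7a11 (r = 0.89). Without the deltaCnA day 1 group, over 8 group means, these were 0.70, 0.75 and 0.86, and Phgdh against Shmt2 was -0.78. Slc7a3 had r of 0.03 to 0.42 with the other 6 genes, and without that group -0.49 with Phgdh, -0.52 with Psat1 and -0.51 with Mthfd2.

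Among 7106 other genes whose group means varied by an SD of at least 0.2, the one with the profile most like the mean of the 7 genes by Pearson's r was Atf4 itself, with r = 0.97 and Spearman's rho = 0.92 over 9 group means. Copg2 followed with r = 0.96 and had the higher rho, 0.95, then came Zfp128, Efcab11 and Pikfyve with 0.95 each. Over the 8 group means without deltaCnA day 1, Atf4 had r = 0.88 and Copg2 0.90. The 7 genes taken singly did not all follow Atf4: over 9 group means r ran from 0.25 for Slc7a3 and 0.45 for Shmt2 to 0.92 for Psat1. Atf4 had log2 intensities of 8.26 and 9.34 at day 1 of induction, against 9.84 and 9.71 at day 0, a change of -0.98 ± 0.25 (adjusted p = 0.0152). Replicate 1 was the lower one here as well, and without it the change was -0.44 (adjusted p = 0.413). The call was also lost without replicate 1 or 2 of day 0 (adjusted p = 0.097 and 0.0813) and with eBayes without trend (adjusted p = 0.0513), and the mean of the Atf4 probes gave -0.54 (adjusted p = 0.0327). At day 4 of induction Atf4 was at 9.49 and 10.02. Taken alone, Asns was most like Hspb6 and Calu (r = 0.98 each), Psat1 most like Mars1 (r = 0.96), Phgdh like Aldh5a1 (r = 0.96), Shmt2 like Decr1 (r = 0.96), Mthfd2 like Marchf5 (r = 0.97) and Slc7a3 like 1700008J07Rik (r = 0.94).

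**Figure D4:**
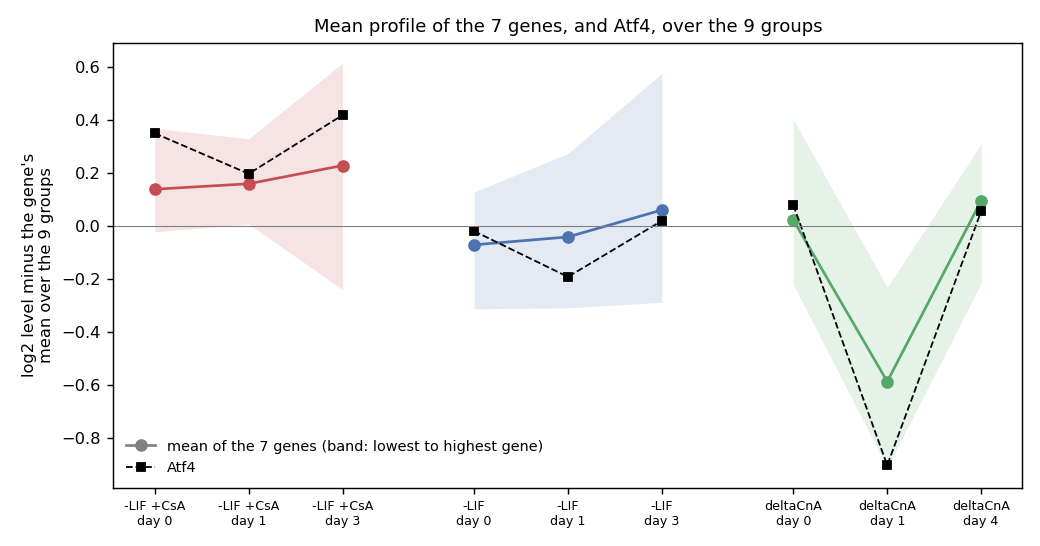
Mean profile of the 7 genes (circles) and Atf4 (black squares) over the 9 groups, each as log2 level minus the gene's own mean over the groups, with days along the horizontal axis. Bands run from the lowest to the highest of the 7 genes; at deltaCnA day 1 the mean is -0.59 and Atf4 -0.90, and in the other groups the mean lies between -0.07 and 0.23.

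Most of the genes measured on a list of ATF4 and its other targets also fell at day 1 of induction, Atf4 itself among them. The list has 23 genes and was drawn up with earlier results of these data known. It also holds the eIF2 kinase genes Eif2ak3 and Eif2ak4, so not all of its genes are targets. Of the 21 measured, 13 fell, 0 rose and 8 were not called, with a median change of -0.86. Over all genes, 11.2% were called there, 4.64% as lower. The largest changes were those of Nupr1, a stress-induced chromatin protein, at -2.46 ± 0.45 (adjusted p = 0.00117), and of the lipoprotein receptor Vldlr, at -2.43 ± 0.30 (adjusted p = 3.35e-05; detected on 1 of the 2 day 1 arrays). Chac1, which degrades glutathione, was at -2.16 ± 0.41 (adjusted p = 0.00172), and Ddit3 (CHOP), a stress transcription factor, at -2.05 ± 0.20 (adjusted p = 2.2e-06). Fewer of the 21 fell without replicate 1 of day 1 than without any other of the 4 arrays, and the same held for calls over all genes. At day 4 against day 1, 13 of 21 rose and 0 fell, where 15.7% of all genes were called, 8.21% as higher. The largest changes were those of Nupr1 at 2.84 ± 0.45, Vldlr at 2.57 ± 0.30, Ddit3 at 2.50 ± 0.20 and Chac1 at 2.49 ± 0.41.

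Of 23 genes of serine, glycine and one-carbon metabolism 14 were measured, of which 2 fell at day 1 of induction and 0 rose, with a median of -0.17, where 4.64% of all genes fell. They were Mthfd1l, the mitochondrial formate-releasing synthetase, at -0.88 ± 0.15 (adjusted p = 0.000774), and Cth, which makes cysteine from cystathionine, at -0.86 ± 0.18 (adjusted p = 0.00321). Cth is also on the ATF4 list. Fewer of the 14 were lower without replicate 1 of day 1, where fewer of all genes were called as well. At day 4 against day 1 both Mthfd1l and Cth rose, by 0.94 ± 0.15 and 1.04 ± 0.18, and Aldh1l2, a mitochondrial formyl-folate dehydrogenase, was at least 1.68-fold higher, not being detected at day 1.

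Of 18 amino acid transporters 16 were measured, and at day 1 of induction 4 fell and 1 rose (median -0.06; 11.2% of all genes called). Slc1a4 and Slc1a5, which carry neutral amino acids, fell, at -1.21 ± 0.32 and -0.75 ± 0.14, and so did the glycine transporter Slc6a9, at -1.2 ± 0.30 (adjusted p = 0.016, 0.00172 and 0.0121). The proton-coupled carrier Slc36a1 was at least 1.60-fold higher, not being detected at day 0. The falls were lost without replicate 1 of day 1, where fewer of all genes were called as well. Of 17 genes of glutamate, aspartate, proline and transamination 11 were measured, with 1 lower and 2 higher (median -0.05): the alanine aminotransferase Gpt2 fell by 1.03 ± 0.26 on the log2 scale, while its cytosolic relative Gpt rose by 0.48 ± 0.12 and Prodh, which degrades proline, by 0.91 ± 0.19 (adjusted p = 0.0119, 0.0138 and 0.00369).

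With CsA at day 3 of LIF withdrawal, the ATF4 list had 7 genes higher and 1 lower of 21 with a median of 0.23 against 0.01 over all genes. These 8 calls of 21 are the same share as over all genes at that day (38.1%). Nupr1 was higher by 2.65 ± 0.45, Ddit3 by 2.53 ± 0.20, Trib3, a pseudokinase, by 1.15 ± 0.23, and Atf5, a related transcription factor, by 1.11 ± 0.28. At day 0, where 13.2% of all genes were called, 6 of 21 were higher with CsA and 0 lower (median 0.30 against -0.02), led by Ddit3 at 1.62 ± 0.20, Vldlr at 1.40 ± 0.30, Cebpb at 0.92 ± 0.19 and Atf5 at 0.90 ± 0.28. Fewer of the 21 were higher at day 0 without replicate 2 of the cells lacking CsA or without replicate 1 of the cells with CsA. Fewer of all genes were called there as well. The count was 3 of 21 under the mean of probes, eBayes without trend or no detection filter. Atf4 itself differed with CsA by 0.37, 0.39 and 0.40 at days 0, 1 and 3, and none of these was called (adjusted p = 0.381, 0.37 and 0.237).

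**Figure D5:**
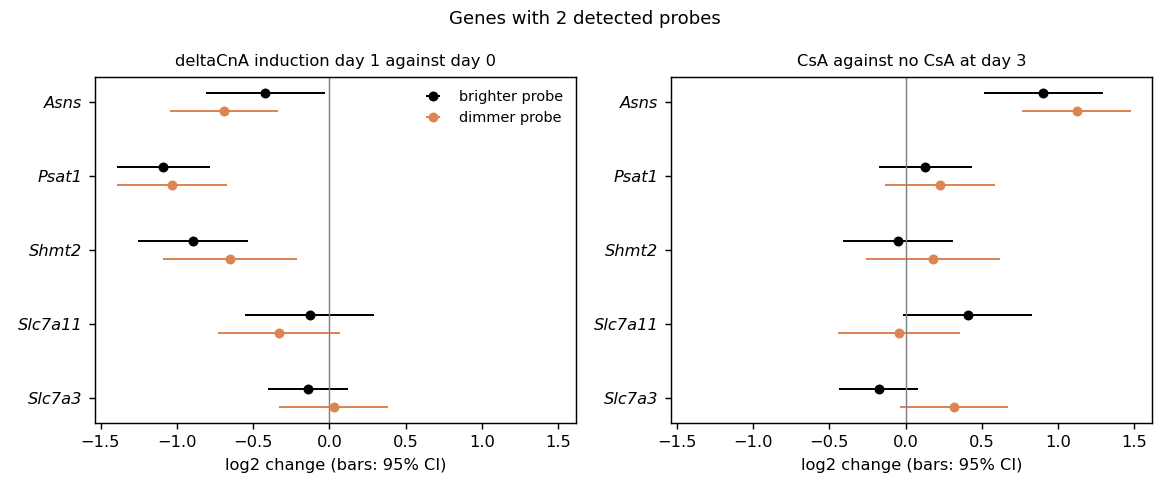
Log2 change of the brighter and the dimmer detected probe of the 5 genes that had 2, with 95% confidence intervals, for deltaCnA day 1 over day 0 (left) and CsA over no CsA at day 3 (right). Both Psat1 probes lie near -1 on the left and both Asns probes near 1 on the right, while the Slc7a3 probes fall on opposite sides of 0 in both panels.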

How the data were processed

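The authors deposited linear probe intensities that per the file headers were not normalized, each with a detection p-value deposited beside it, and a second table of processed intensity values whose normalization is not given in the sources used here. RNA was extracted with Trizol and labelled with biotin, per the labels' protocols. Background was modelled with normexp in limma 3.58.1 (R 4.3.3; offset 16, negative controls inferred from detection p-values), and the values were quantile normalized and taken to log2. A probe was kept where both arrays of any 1 group had a detection p under 0.05 (21691 of 46632; 29976 probes had 1 gene symbol, 10 several and 16646 none). The brightest stood for its gene, giving 10980 genes. Where the dimmer group was undetected, a fold is a lower bound against the lowest detected level.

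Contrasts of 9 group means over 18 arrays were fitted with lmFit and eBayes (trend; 9 residual degrees of freedom), with Benjamini-Hochberg adjustment over all genes in each of 13 comparisons. A second probe was tested in the same fit over probes. Errors with a log2 change are standard errors. Named genes were the 10 members, up to 4 called genes of each list with the largest change, and the 5 most similar profiles (3 for a single member). The members and lists were chosen with earlier results of these data known, and the lists share genes. The fit was tested on simulated data. The number of arrays limits the precision. Deviations of same-numbered replicates correlated at 0.05 to 0.35 within the LIF withdrawal course, 0.13 to 0.20 within the deltaCnA course and -0.21 to 0.06 across the courses. With 2 numbers a group and nothing in the labels to tie them, the numbers were not taken to pair samples. The alternatives were 11 other settings and leaving out each array.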

Additional observations from a re-analysis of the deposited data

How the results depend on the processing

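Over 11 alternative settings, 964 of 1001 results for single genes kept their direction and side of the threshold, 19 lost a call, 18 gained one and 0 reversed, and of 420 results that left out 1 array these were 389, 27, 4 and 0. The replicate block changed 0 of 91, with 4 of 7 genes called at deltaCnA day 1 as without it. A replicate block within each course, added after seeing the data, lost 0 calls and gained 8, for counts of 5 at deltaCnA day 1 (Asns, adjusted p = 0.00761), 1 at day 4 (Asns, 0.023), 5 at day 4 against day 1 (Phgdh, 0.0255), 2 with CsA against no CsA at day 0 (Asns, 0.00253), 2 at day 1 (Asns, 0.00417; Psat1, 0.0181) and 2 in the day 3 interaction (Asns, 0.0486; Slc7a3, 0.0331). Over all genes it called 1890 at deltaCnA day 1, 708 at day 4 and 2419 at day 4 against day 1. With CsA against no CsA it called 2132 at day 0 and 1829 at day 1. It called 757 at day 1 with CsA, 21 in the day 1 interaction and 2237 in the day 3 interaction. The count of called genes was 0 in place of 1 for CsA against no CsA at day 0 under the mean of probes, median scaling over all or over kept probes (the second added after seeing the data), no background model, no detection filter, the authors' processed table and a fit of only the arrays compared. It was also 0 in place of 1 at day 1 without LIF under median scaling of either kind, no detection filter and eBayes without trend, at day 3 without LIF under median scaling over all probes and no filter, and at day 3 with CsA under those 2, the mean of probes and eBayes without trend. Median scaling over kept probes called 3 at day 3 without LIF (Asns at -0.42 and Shmt2 at -0.46 as well as Phgdh). Over all 10980 genes it called 4419 there, with a median change of -0.14. With only the arrays compared, 2 were called with CsA against no CsA at day 1, 2 at day 3 with CsA, and 1 at deltaCnA day 4 against day 0. Leaving out 1 array gave 1 to 5 calls at deltaCnA day 1, 1 to 5 at day 4 against day 1, 0 to 1 for CsA at day 0 and for the 2 lines at day 0, 0 in the LIF comparisons, and 1 for CsA at day 3.

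Median scaling over all probes, whose median lies near background, called fewer genes of all 10980: 468 at deltaCnA day 1 (1228 as reported), 171 at day 4 (376), 681 at day 4 against day 1 (1720), 791 between the lines (1911), 429, 399 and 2630 with CsA at days 0, 1 and 3 (1447, 1180 and 4183), 220 and 1780 at days 1 and 3 with CsA (497 and 3249), and 793 in the day 3 interaction (1677). It shifted the median of all genes at day 1 without LIF to -0.19, against -0.01. Of the genes called there, 20% were higher, against 44.3% as reported. With CsA at day 1 against no CsA the share was 69.2% against 50.3%, with CsA at day 0 35.7% against 46.9%, and at day 1 against day 0 with CsA 34.1% against 51.5%. Over kept probes the share at day 3 without LIF was 35.2% against 48.2%, with a median of -0.14 against -0.05, in the day 3 interaction 64.1% against 52.3%, and with CsA at day 0 33.8% against 46.9%. With only the arrays compared, 734 genes were called with CsA at day 0 and 685 at deltaCnA day 4, and the day 1 interaction (8) had between 1 and 5 calls under 5 settings. Leaving out replicate 1 of deltaCnA day 1 left 241 genes called there and 565 at day 4 against day 1. The other arrays left out also moved counts over all genes, to as low as 476 at day 1 without LIF (925), 237 at day 1 with CsA, 2035 at day 3 with CsA, 464 and 446 with CsA against no CsA at days 0 and 1, 998 in the day 3 interaction, 107 at deltaCnA day 4 and 800 between the lines. Dim signal limits Slc7a11 most, and Psph and Aldh18a1 altogether.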

Other observations

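Other amino acid transporters changed during LIF withdrawal. At day 3 without LIF, 8 of the 16 measured were higher and 4 lower than at day 0, with a median of 0.44 against -0.05 over all genes, of which 38.2% were called. Slc1a1, a glutamate and cysteine carrier, changed by -3.27 ± 0.20 (log2) at day 3 without LIF (adjusted p = 8.41e-12; detected on 1 of 2 day 3 arrays) and by -1.48 ± 0.20 at day 1 (adjusted p = 2.07e-05). Slc43a1, a carrier of large neutral amino acids, was higher by 1.35 ± 0.19, Slc1a4 by 1.24 ± 0.32 and the glutamine carrier Slc38a1 by 1.00 ± 0.17 (adjusted p = 4.85e-06, 0.00315 and 4.2e-05). With CsA against no CsA at day 3, Slc38a4, a neutral amino acid carrier, was higher by 2.09 ± 0.23 and Slc1a1 by 1.87 ± 0.20, and Slc7a7, which exports cationic amino acids, changed by -1.39 ± 0.16 (adjusted p = 2.41e-07, 1.33e-07 and 2.98e-07).

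Within serine, glycine and one-carbon metabolism, the transsulfuration enzymes Cth and Cbs fell at day 3 without LIF, at -1.18 ± 0.18 and -1.11 ± 0.22 (adjusted p = 9.5e-06 and 0.000335), among 5 lower and 1 higher of 14, a share near that over all genes (38.2%). The serine racemase Srr fell by 0.61 ± 0.18 (adjusted p = 0.00936) and Mthfd1l rose by 0.41 ± 0.15 (adjusted p = 0.0372). Of the ATF4 list, 9 of 21 were higher and 2 lower at that day, with Vldlr at 2.69 ± 0.30, Atf3 at least 2.03-fold higher, Cth lower and Ddit4 at 1.13 ± 0.23, while Atf4 moved by 0.04 (adjusted p = 0.925). The argininosuccinate synthase Ass1 fell by 1.19 ± 0.14 (adjusted p = 2.41e-07), among 4 lower and 2 higher of 11 genes of glutamate, aspartate and proline metabolism.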
